A study of Homo sapiens with 9 samples.

Results

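The genes described here are 10 markers and regulators of epithelial to mesenchymal transition (EMT), taken by name from a list made with earlier results of these data known: the epithelial genes CDH1 and ESRP1, the mesenchymal genes VIM, FN1 and CDH2, and the transcription factors SNAI1, SNAI2, ZEB1, ZEB2 and TWIST1. All 10 were found among the 23284 gene symbols of the RNA-Seq files, 8 were above 0 in at least 1 of the 9 samples, 6 were above 0 in all 9, and 2 (CDH2 and TWIST1) were listed at 0 in all 9. RNA came from HT-29, an established human colon adenocarcinoma cell line, grown for 5 days with vehicle (DMSO, 0 µM) or with 5 µM or 10 µM 5-aza-deoxycytidine (5-Aza), with 3 biological replicate cultures at each concentration. Every culture is of a single cell line, so the results describe that line at a single time point. Expression is given as FPKM, a fragment count divided by transcript length and by a library term. The library term behind the deposited values, which run far above the usual range of the unit, is not given in the sources used here, so levels are read against each other and not as absolute amounts.

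EMT is the programme by which epithelial cells loosen their junctions and take on features of motile mesenchymal cells, and it is studied in colon carcinoma for its link to invasion. CDH1 (E-cadherin) holds epithelial cells together, and the zinc finger factors of the SNAI and ZEB families bind E-box motifs in its promoter and repress it. 5-Aza is a cytidine analogue that is built into DNA and traps DNA methyltransferases, so that dividing cells lose DNA methylation, a mark that is often associated with silent promoters when it lies in CpG-rich sequence.

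The promoter windows of VIM and FN1 are shown because these mesenchymal genes are the members that rose at both concentrations and because CpG dinucleotides are where DNA methylation, the mark that the drug lowers, is placed. Each line gives the 250 bases before the annotated start, 5′ to 3′ on the strand of the gene, from the RefSeq table (build GRCh38.p14), with every CG in capitals. The VIM window lies at chr10:17227991-17228240 on the plus strand and the FN1 window at chr2:215436069-215436318 on the minus strand.
VIM: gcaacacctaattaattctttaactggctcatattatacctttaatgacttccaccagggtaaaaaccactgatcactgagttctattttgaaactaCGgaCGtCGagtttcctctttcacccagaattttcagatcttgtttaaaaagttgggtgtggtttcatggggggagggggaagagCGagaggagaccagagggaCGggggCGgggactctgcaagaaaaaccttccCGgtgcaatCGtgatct
FN1: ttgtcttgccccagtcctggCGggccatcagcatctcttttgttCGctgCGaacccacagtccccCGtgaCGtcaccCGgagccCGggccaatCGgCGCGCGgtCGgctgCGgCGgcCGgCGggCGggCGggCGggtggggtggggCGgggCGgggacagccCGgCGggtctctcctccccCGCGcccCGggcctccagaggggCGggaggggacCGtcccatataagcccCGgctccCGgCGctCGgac
VIM holds 8 CG dinucleotides in this window and FN1 holds 32, against a median of 11 over the 35116 promoter windows of the table. A lower number than that of VIM was found in 43.7% of the windows, and a lower number than that of FN1 in 90.5%. The E-box letters CAGGTG, searched on both strands (CAGGTG or CACCTG), occur in 17.5% of all windows. They do not occur in these windows of VIM, FN1, ZEB2 or CDH2, and they occur in 2 of the 7 windows of ZEB1. These 5 genes matched the table, and CDH1, ESRP1, SNAI1, SNAI2 and TWIST1 did not. Sequence after the annotated start was not counted, so these numbers do not give the CG content of a whole promoter region. DNA methylation was not analysed here, so these windows are described by their letters alone.

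The libraries differed in depth with concentration, which matters most for the members that rest on few fragments. The files give no read totals, but the lowest values step in whole fragments, and the estimated number of fragments per library was 15204750 to 28431265 at 0 µM, 26697610 to 31149743 at 5 µM and 11394082 to 24778214 at 10 µM. No 2 replicates held identical values. Of the 16 housekeeping genes checked, 0 were listed at 0 in any library. All 11 colon epithelial markers were above 0 in every group. Their summed FPKM was 82962557 to 99432635 at 0 µM, 35445320 to 40076053 at 5 µM and 27617325 to 48477575 at 10 µM. The sum was mostly KRT8 (35211200 to 42003400 at 0 µM) and KRT18 (29680100 to 36486000), so it does not stand for the markers as a set. By the thresholds used below, 2 of the 11 were higher and 2 lower at 5 µM than at 0 µM (14.1% and 2.17% of all genes tested). At 10 µM 0 were higher and 2 lower (4.07% and 3.4%). Being above 0 does not by itself set a cell identity, since all 8 fibroblast markers were also above 0 in some culture at 0 µM.

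CDH1 was among the most abundant transcripts of HT-29, ranking 219 to 608 of the 23284 symbols by FPKM in the 9 libraries, and was abundant at every concentration. Its gene lies on chromosome 16 (68771195 to 68869440, plus strand, GRCh37). Its FPKM was 2152250, 2157600 and 2101680 in the cultures at 0 µM (mean 2137177 ± 30857, SD, n = 3). At 5 µM it was 1851910, 2049220 and 2253480 (mean 2051537 ± 200795), and at 10 µM it was 1247190, 1657220 and 1008710 (mean 1304373 ± 328015). The 5 µM cultures overlapped the 0 µM cultures, whereas all 3 cultures at 10 µM lay below every other culture. On the log2(FPKM + 1) scale CDH1 differed by -0.06 ± 0.093 (SE) between 5 µM and 0 µM (limma adjusted p = 0.594) and by -0.74 ± 0.217 between 10 µM and 0 µM (limma adjusted p = 0.0586), and neither difference passed the test. Scaling the libraries by the median of ratios, as an alternative to the deposited FPKM, made the latter difference -0.50 (limma adjusted p = 0.0447), still smaller than the 2-fold limit. Scaling to the library total made the 10 µM difference -0.36 (limma adjusted p = 0.129). In RNA from whole cultures, fewer cells that express a gene and less of its RNA per cell cannot be told apart.

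ESRP1, which encodes an RNA-binding protein that keeps transcripts such as FGFR2 and CD44 in their epithelial splice forms, was lower at 10 µM than at 0 µM. It lies on chromosome 8 (95653302 to 95719694, plus strand). Its FPKM was 1062690, 1081980 and 919172 at 0 µM, 739580, 938913 and 910819 at 5 µM, and 500901, 707136 and 483573 at 10 µM. All 3 of the 10 µM values lay below every other value, and the 5 µM range overlapped the 0 µM range. The difference between 10 µM and 0 µM was -0.88 ± 0.185 on the log2 scale, 1.83-fold lower, with a limma adjusted p of 0.0253. It thus passed the p threshold but not the 2-fold limit, which it passed only when 10 µM replicate 2 was left out (log2 difference -1.05, limma adjusted p = 0.00778). Without any other single culture of this comparison, ESRP1 lost the p threshold as well (limma adjusted p of 0.0942 to 0.147). Between 5 µM and 0 µM the difference was -0.25 ± 0.118 (limma adjusted p = 0.141). Scaling by the library total instead turned the 5 µM difference of CDH1 to 0.22 and that of ESRP1 to 0.04. The 10 µM difference of ESRP1 from 0 µM was -0.63 after median-of-ratios scaling (limma adjusted p = 0.00939) and -0.50 after total scaling (limma adjusted p = 0.0182).

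VIM, the gene of the mesenchymal intermediate filament protein vimentin, was almost without fragments in control cells and was detected in every treated culture. It lies on chromosome 10 (17270240 to 17279592, plus strand). The FPKM of VIM was 0, 0 and 186 at 0 µM, and the single value above 0 corresponds to 1 fragment. At 5 µM it was 7582, 9193 and 14791 (46, 53 and 96 fragments), and at 10 µM it was 1248, 2172 and 1165 (4, 11 and 5 fragments). The 3 ranges do not overlap, and the order was 5 µM, then 10 µM, then 0 µM.

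The size of the VIM rise is poorly bounded because the control rests on that 1 fragment. With the fragments of each group summed and divided by the library terms, VIM was 125-fold higher at 5 µM than at 0 µM (195 against 1 fragment, 95% exact interval 22.1 to 4950). At 10 µM it was 18.7-fold higher (20 against 1 fragment, interval 2.98 to 773), and at 5 µM it was 6.68-fold higher than at 10 µM (interval 4.21 to 11.2). These intervals cover counting error only. In limma the difference passed both thresholds at 5 µM (adjusted p = 0.00888) and at 10 µM (limma adjusted p = 0.0480), and VIM was lower at 10 µM than at 5 µM by a log2 difference of -2.78 ± 0.426 (limma adjusted p = 0.0130). The fitted log2 differences from control, 10.79 and 8.005, depend on the value added before the logarithm and became 3.395 and 1.23 when 1000 was added in place of 1. Leaving out any single 5 µM culture ended the 5 µM call (limma adjusted p of 0.0575, 0.0591 and 0.0698), and the 10 µM call ended without 0 µM replicate 1 or 2 or any single 10 µM culture (limma adjusted p of 0.122 to 0.209). The lower level at 10 µM than at 5 µM lost its call without any single 5 µM culture or without 10 µM replicate 3 (limma adjusted p of 0.0504 to 0.102), and in a fit of all 9 samples (0.353).

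FN1, which encodes the matrix glycoprotein fibronectin, rose at both concentrations from a low but measurable level. It lies on chromosome 2 (216225163 to 216300796, minus strand). The FPKM of FN1 was 3791, 2824 and 3506 at 0 µM (mean 3374 ± 497), 11752, 9605 and 14858 at 5 µM (mean 12072 ± 2641), and 8854, 7967 and 7353 at 10 µM (mean 8058 ± 755). Every treated culture lay above every control culture, and the 10 µM cultures lay below the 5 µM cultures. FN1 was 3.55-fold higher at 5 µM (log2 difference 1.83 ± 0.264, limma adjusted p = 0.00268) and 2.40-fold higher at 10 µM (1.26 ± 0.332, limma adjusted p = 0.0447). The 10 µM call was lost without any single 0 µM culture or without 10 µM replicate 1 or 3 (limma adjusted p of 0.0906 to 0.139). The difference between 10 µM and 5 µM was -0.56 ± 0.261 and did not pass the test (limma adjusted p = 0.229). CDH2 (N-cadherin, chromosome 18, 25512843 to 25757910, minus strand), the cadherin that often replaces E-cadherin in mesenchymal cells, was listed at 0 in all 9 cultures. A count of 0 allows up to 3 fragments, which for CDH2 corresponds to 252 to 648 FPKM depending on the library.

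**Figure D1:**
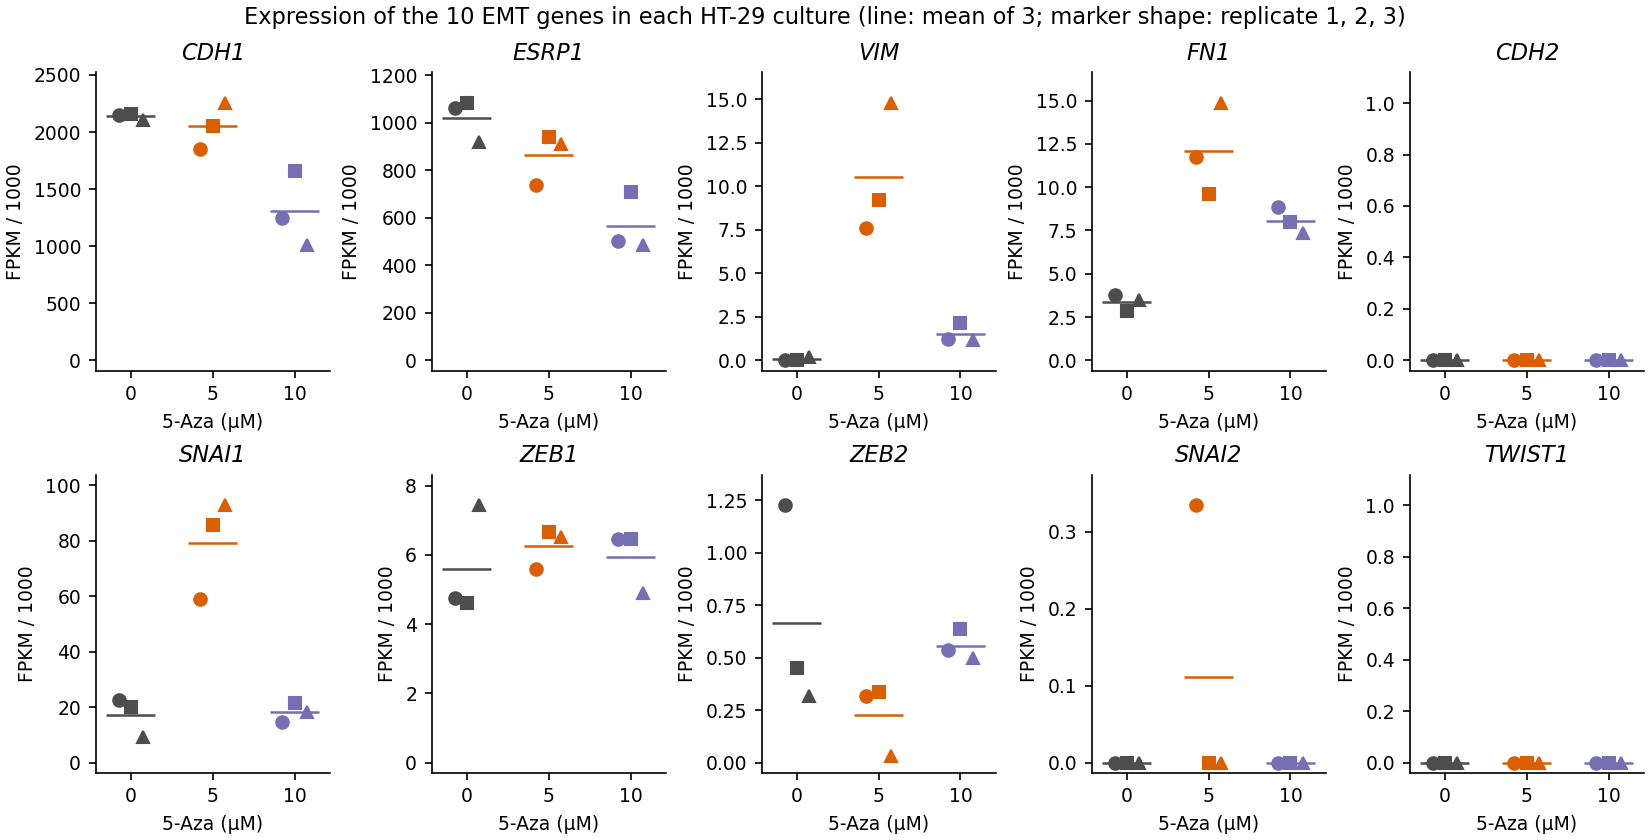
FPKM divided by 1000 (linear y axis from 0, a separate scale for each gene) against 5-Aza concentration in µM for the 10 EMT genes. Each point is 1 culture, its shape gives the replicate number, and the line is the mean of 3. CDH1 and ESRP1 are lowest at 10 µM, VIM, FN1 and SNAI1 are highest at 5 µM, and CDH2 and TWIST1 are at 0 throughout.

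SNAI1 (Snail), a zinc finger repressor of CDH1, rose at 5 µM and lay within the control range at 10 µM. Its gene lies on chromosome 20 (48599517 to 48605423, plus strand). The FPKM of SNAI1 was 22473, 19957 and 9328 at 0 µM, 59026, 85577 and 92686 at 5 µM, and 14467, 21616 and 18309 at 10 µM. Even the lowest 5 µM value was above the highest value of either other group, while the 0 µM and 10 µM groups overlapped. SNAI1 was 4.82-fold higher at 5 µM than at 0 µM (log2 difference 2.27 ± 0.366, limma adjusted p = 0.00416) and 4.34-fold lower at 10 µM than at 5 µM (log2 difference -2.12 ± 0.238, limma adjusted p = 0.00538). The latter call was lost without 5 µM replicate 2 (limma adjusted p = 0.0511) or replicate 3 (limma adjusted p = 0.0532). Between 10 µM and 0 µM the log2 difference was 0.15 ± 0.374 (limma adjusted p = 0.789), and it was -0.24 when 0 µM replicate 3, the lowest control, was left out. SNAI1 and CDH1 were therefore not mirror images across the concentrations: SNAI1 was highest at 5 µM, where the CDH1 range overlapped that of the control, and CDH1 was lowest at 10 µM, where SNAI1 lay in its control range.

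ZEB1, a zinc finger and homeodomain repressor of CDH1 that the miR-200 family holds down in epithelial cells, was low and did not pass the test in any comparison. It lies on chromosome 10 (31607424 to 31818742, plus strand). The FPKM of ZEB1 was 4752, 4619 and 7431 at 0 µM, 5597, 6653 and 6510 at 5 µM, and 6456, 6469 and 4903 at 10 µM. All 3 groups overlapped, and the log2 differences from 0 µM were 0.19 ± 0.276 at 5 µM (limma adjusted p = 0.591) and 0.11 ± 0.358 at 10 µM (limma adjusted p = 0.848). The antisense gene ZEB1-AS1 had more FPKM than ZEB1, 29101 to 33580 at 0 µM, 15407 to 18384 at 5 µM and 13798 to 16514 at 10 µM. Strand use in the counting is not given in the sources used here, so reads from overlapping stretches of the pair cannot be told apart.

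ZEB2, SNAI2 and TWIST1 were at or near the limit of detection. ZEB2 (chromosome 2, 145121931 to 145278624, minus strand), the paralogue of ZEB1, had FPKM of 1226, 451 and 319 at 0 µM, 318, 335 and 33.1 at 5 µM and 536, 636 and 500 at 10 µM. Such ZEB2 values rest on an estimated 0.908 to 13.6 fragments per library, and no comparison passed the test (limma adjusted p of 0.237, 0.992 and 0.311 for 5 µM against 0 µM, 10 µM against 0 µM and 10 µM against 5 µM). SNAI2 (Slug, chromosome 8, 49830157 to 49834299, minus strand), the paralogue of SNAI1, was above 0 in 5 µM replicate 1 alone, at 334 FPKM or an estimated 2.02 fragments. TWIST1 (chromosome 7, 19060614 to 19157259, minus strand), a basic helix-loop-helix factor, was listed at 0 in all 9 cultures. The limit of 3 fragments corresponds to 464 to 1195 FPKM for SNAI2 and to 621 to 1598 FPKM for TWIST1, so a 0 in a library does not exclude a level below that limit.

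Against control, the members that passed both thresholds were VIM, FN1 and SNAI1, and each was higher in the treated cells. At 5 µM, 3 of the 8 members tested rose (VIM, FN1 and SNAI1) and 0 fell, where 14.1% of all genes tested rose and 2.17% fell (16.2% in either direction). At 10 µM, 2 of 7 rose (VIM and FN1) and 0 fell, against 4.07% and 3.4% of all genes tested (7.48% in either direction). From 5 µM to 10 µM, 0 of 8 rose and 2 fell (VIM and SNAI1), against 0.129% and 4.82% (4.95% in either direction). At an unadjusted limma p under 0.05 without a fold limit, 3 members were higher and 0 lower at 5 µM than at 0 µM, where 26.6% and 21.9% of all genes were. At 10 µM 2 were higher and 2 (CDH1 and ESRP1) lower, against 11.3% and 24.2% of all genes. From 5 µM to 10 µM, 0 were higher and 4 were lower at that threshold (CDH1, ESRP1, SNAI1 and VIM), against 2.84% and 22%. Both treated groups were compared with the same control cultures, so these counts share samples. The split of all calls at 10 µM against 0 µM moved with the scaling: 54.5% of calls were higher in the deposited FPKM, 79.8% after median-of-ratios scaling and 89.3% after scaling to the library total. The median log2 difference of the genes above 0 in all 6 samples was -0.04 at 5 µM and -0.23 at 10 µM against 0 µM.

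**Figure D2:**
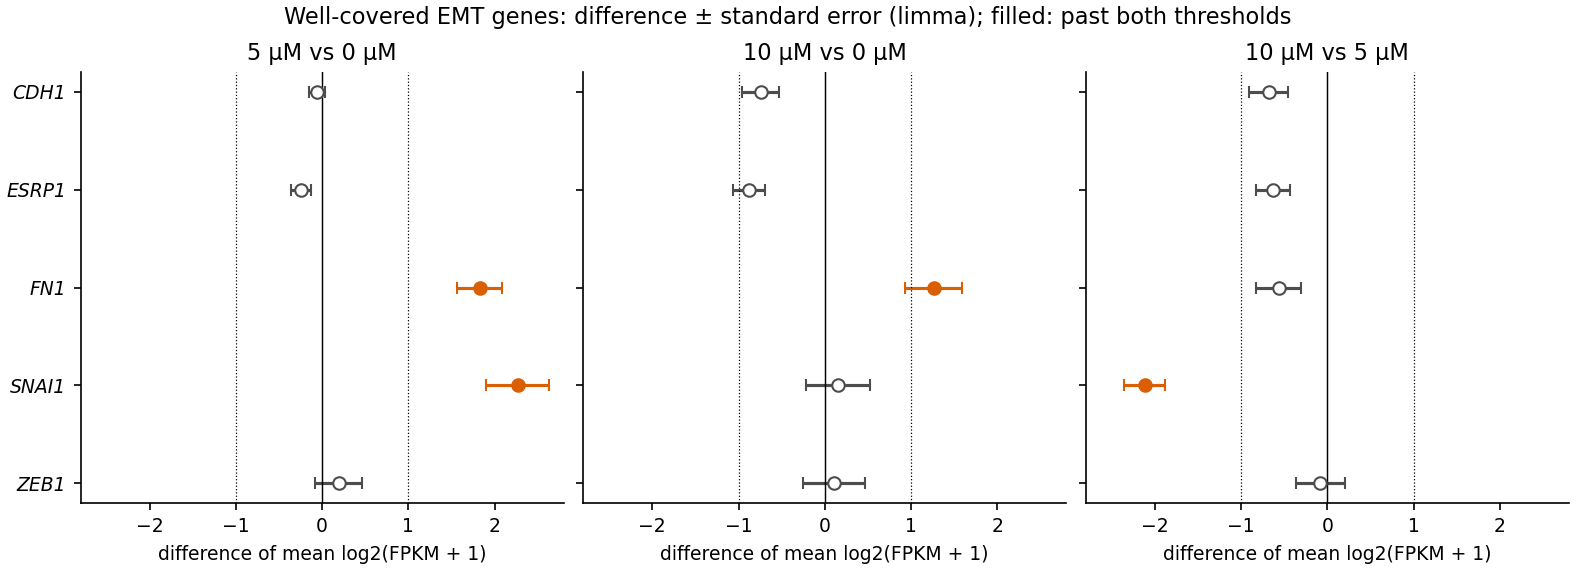
Difference of mean log2(FPKM + 1) (x axis) for the 5 best covered members (y axis) in the 3 comparisons, with bars for ± 1 standard error from limma and dotted lines at the 2-fold limit. Filled points pass both thresholds: FN1 and SNAI1 at 5 µM against 0 µM, FN1 at 10 µM against 0 µM, and SNAI1, in the lower direction, at 10 µM against 5 µM.

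A ratio of 2 genes within a library is free of the library term, and it set the mesenchymal genes directly against the epithelial one. Depth still limits a ratio that rests on few fragments, as for VIM at 0 µM (0, 0 and 1 fragments) and at 10 µM (4, 11 and 5). VIM reached 0, 0 and 0.0884 FPKM per 1000 FPKM of CDH1 at 0 µM, 4.09, 4.49 and 6.56 at 5 µM and 1.00, 1.31 and 1.15 at 10 µM. Its ratio was thus small throughout, and even in the culture with the highest ratio VIM stood far below CDH1. FN1 per 1000 CDH1 was 1.58 ± 0.239 (SD, n = 3) at 0 µM, 5.88 ± 1.04 at 5 µM and 6.40 ± 1.38 at 10 µM. Relative to CDH1, the FN1 ranges at 5 µM and 10 µM overlapped (4.69 to 6.59 and 4.81 to 7.29), whereas its FPKM ranges did not. SNAI1 per 1000 CDH1 was 8.04 ± 3.18 at 0 µM, 38.3 ± 5.54 at 5 µM and 14.3 ± 3.44 at 10 µM. The 10 µM ratios of SNAI1 (11.6, 13.0 and 18.2) lay just above the control ratios (10.4, 9.25 and 4.44), which its FPKM did not. ZEB1 per 1000 CDH1 was 2.63 at 0 µM, 3.05 at 5 µM and 4.65 at 10 µM, and its 10 µM values (5.18, 3.90 and 4.86) lay above every other culture. The ratio of ESRP1 to CDH1 had overlapping ranges in the 3 groups, with means of 478, 421 and 436 per 1000 at 0, 5 and 10 µM. These ratios are given as descriptions, without a test.

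**Figure D3:**
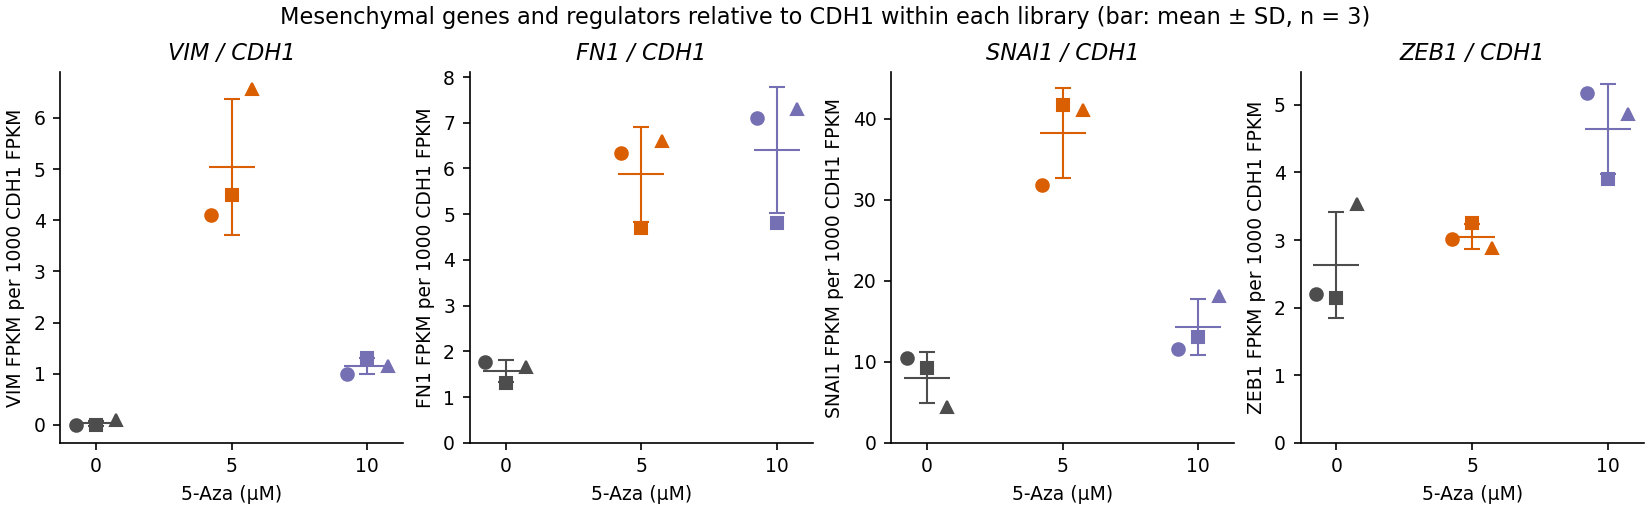
FPKM of VIM, FN1, SNAI1 and ZEB1 per 1000 FPKM of CDH1 in the same library (y axis, linear) against 5-Aza concentration in µM; points are cultures and bars are mean ± SD (n = 3). VIM and SNAI1 are highest at 5 µM, the FN1 ranges at 5 µM and 10 µM overlap, and ZEB1 is highest at 10 µM.

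The genes whose profile over the 9 samples was nearest to that of VIM, among 15278 genes above 0 in all 9, were TRY6, PRICKLE2 (a planar cell polarity gene) and H19 (an imprinted long non-coding RNA), at root mean square differences of 1.46, 1.75 and 2.19 on the centred log2 scale. The nearest to CDH1 were SLC39A14 (a metal ion transporter), EIF2C1 (Argonaute 1) and NOMO2, at 0.0437, 0.04997 and 0.0692. The distances differ greatly because the VIM profile runs from 0 to 14791 FPKM, which no gene above 0 in every sample matched closely.

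The wider epithelial lists hold 44 tested genes, of which 2 rose and 6 fell at 5 µM, and 1 rose and 6 fell at 10 µM, against 14.1% and 2.17%, and 4.07% and 3.4%, of all genes tested. Of the 30 junction, adhesion and keratin genes, 1 rose and 3 fell at 5 µM, and 1 rose and 3 fell at 10 µM. Their median log2 differences were -0.24 and -0.52, against 0.14 and -0.15 for all genes tested. Genes above 0 in all 6 samples compared, which leaves out those at 0 in some library, had medians of -0.04 and -0.23. MUC1, a cell surface mucin, was the gene that rose, from 5249, 6320 and 9234 FPKM at 0 µM by 8.37-fold at 5 µM (limma adjusted p = 0.000427) and by 3.56-fold at 10 µM (limma adjusted p = 0.0236). KRT19, a simple epithelial keratin, fell 3.45-fold at 5 µM (limma adjusted p = 0.000271) and 2.92-fold at 10 µM (limma adjusted p = 0.0251). KRT8, its partner-forming relative in the intermediate filaments of epithelia, fell 3.13-fold at 5 µM (limma adjusted p = 0.00113), and MARVELD2, a protein of tricellular tight junctions, fell 2.42-fold at 10 µM (limma adjusted p = 0.0313). Keratins have many processed pseudogenes that can share their reads, which leaves their values uncertain.

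Among the 14 epithelial transcription, splicing and polarity genes, 1 rose and 3 fell at 5 µM and 0 rose and 3 fell at 10 µM, where 14.1% and 2.17%, and 4.07% and 3.4%, of all genes did. Their median log2 differences were -0.55 and -0.87, against 0.14 and -0.15 for all genes tested and -0.04 and -0.23 for those above 0 in all 6 samples. At an unadjusted limma p under 0.05, 3 were higher and 9 lower at 5 µM (26.6% and 21.9% of all genes). At 10 µM, 1 was higher and 11 were lower at that threshold (11.3% and 24.2%). CDX1, an intestinal homeobox factor, rose 4.396-fold at 5 µM (limma adjusted p = 0.000730). HNF4A, a nuclear receptor of gut and liver epithelium, fell 2.22-fold at 5 µM (limma adjusted p = 0.000477) and 2.71-fold at 10 µM (limma adjusted p = 0.0172). ELF3, an epithelial ETS factor, fell 2.31-fold at 5 µM (limma adjusted p = 0.000141), and CDX2, the main intestinal homeobox factor, fell 2.61-fold at 10 µM (limma adjusted p = 0.00996). With the p threshold alone and no 2-fold limit, 24 of the 44 epithelial genes were lower and 6 higher at 5 µM (17.7% and 21.3% of all genes), and 16 were lower and 2 higher at 10 µM (9.71% and 5.39%). Scaling to the library total made the 2-fold calls 4 higher and 3 lower at 5 µM, so the direction with more calls depends on the scaling. Over all genes the calls under that scaling were 3585 higher and 167 lower (95.5% higher), against 86.6% higher in the deposited FPKM. At 10 µM, leaving out 10 µM replicate 2 raised the epithelial calls from 7 to 14, and leaving out any other single culture left 1 or 2.

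The 24 genes of mesenchymal matrix and matrix enzymes were mostly higher at 5 µM. At 5 µM, 17 of 24 rose and 0 fell (14.1% and 2.17% of all genes tested), and at 10 µM 4 of 22 tested rose and 0 fell (4.07% and 3.4%). From 5 µM to 10 µM, 8 of 24 fell and 0 rose (4.82% and 0.129%). At an unadjusted limma p under 0.05 the counts were 19 higher and 0 lower at 5 µM (26.6% and 21.9% of all genes) and 4 higher and 0 lower at 10 µM (11.3% and 24.2%). From 5 µM to 10 µM, 0 were higher and 17 lower at that threshold (2.84% and 22%). The median log2 differences from control were 4.08 and 1.24 (0.14 and -0.15 for all genes tested). A second measure took the log2 ratio of mean FPKM for every gene, with groups listed at 0 set to the limit of 3 fragments. Its medians were 1.61 and 0.55 (0 and -0.13 for all genes tested). COL6A3, a chain of type VI collagen, had FPKM of 396, 118 and 185 at 0 µM, 7674, 7803 and 7994 at 5 µM and 4054, 2571 and 1782 at 10 µM. Its 10 µM level was 12.8-fold that of the control (log2 difference 3.68, limma adjusted p = 0.0241). The control values of COL6A3 rest on an estimated 4.80, 2.16 and 4.80 fragments, so the size of that fold is poorly bounded. POSTN (periostin), a matrix protein of fibroblasts, was at 0 in every control culture and at 1269, 802 and 1424 FPKM at 5 µM, at least 2.08-fold higher when each control library is given the 3 fragments that a count of 0 allows. MMP9, a gelatinase, was called at 5 µM but rests on fragments at the limit of detection, so no fold is given.

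The 20 genes of mesenchymal cytoskeleton and adhesion were mixed. At 5 µM, 5 of 19 tested rose and 1 fell (14.1% and 2.17% of all genes tested), and at 10 µM 3 of 20 rose and 2 fell (4.07% and 3.4%). The integrin subunits ITGA5 and ITGB3, receptors for fibronectin and vitronectin, were at 0 in all control cultures. ITGA5 had 628, 1363 and 1798 FPKM at 5 µM, at least 2.90-fold higher, and ITGB3 had 406, 499 and 1392, at least 2.46-fold higher. At 10 µM ITGA5 and ITGB3, like POSTN of the matrix list, were called, but in ITGA5 and POSTN every culture and in ITGB3 all but replicate 2 were under the limit of 3 fragments, so no fold is given. CD44, a hyaluronan receptor, fell 2.37-fold at 5 µM (limma adjusted p = 0.000380), and NT5E (CD73) and the integrin subunit ITGB1 fell 2.22-fold and 2.07-fold at 10 µM (limma adjusted p = 0.00971 and 0.0270). After median-of-ratios scaling 0 mesenchymal genes were lower at 10 µM.

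Over both mesenchymal lists, 22 of 43 tested genes rose at 5 µM against 14.1% of all genes tested, 7 of 42 rose at 10 µM against 4.07%, and 9 of 44 fell from 5 µM to 10 µM against 4.82%. Of the 22 that rose at 5 µM, 20 had at least 10 estimated fragments in some library, and 5 were at 0 in all control cultures. Of the 7 at 10 µM, 4 had at least 10 fragments and 3 were at 0 in all control cultures. At 10 µM the mesenchymal calls, 9 in both directions, fell to 3 to 5 without any single 0 µM culture or without 10 µM replicate 1 or 3. From 5 µM to 10 µM the calls fell to 4 without any single 5 µM culture.

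**Figure D4:**
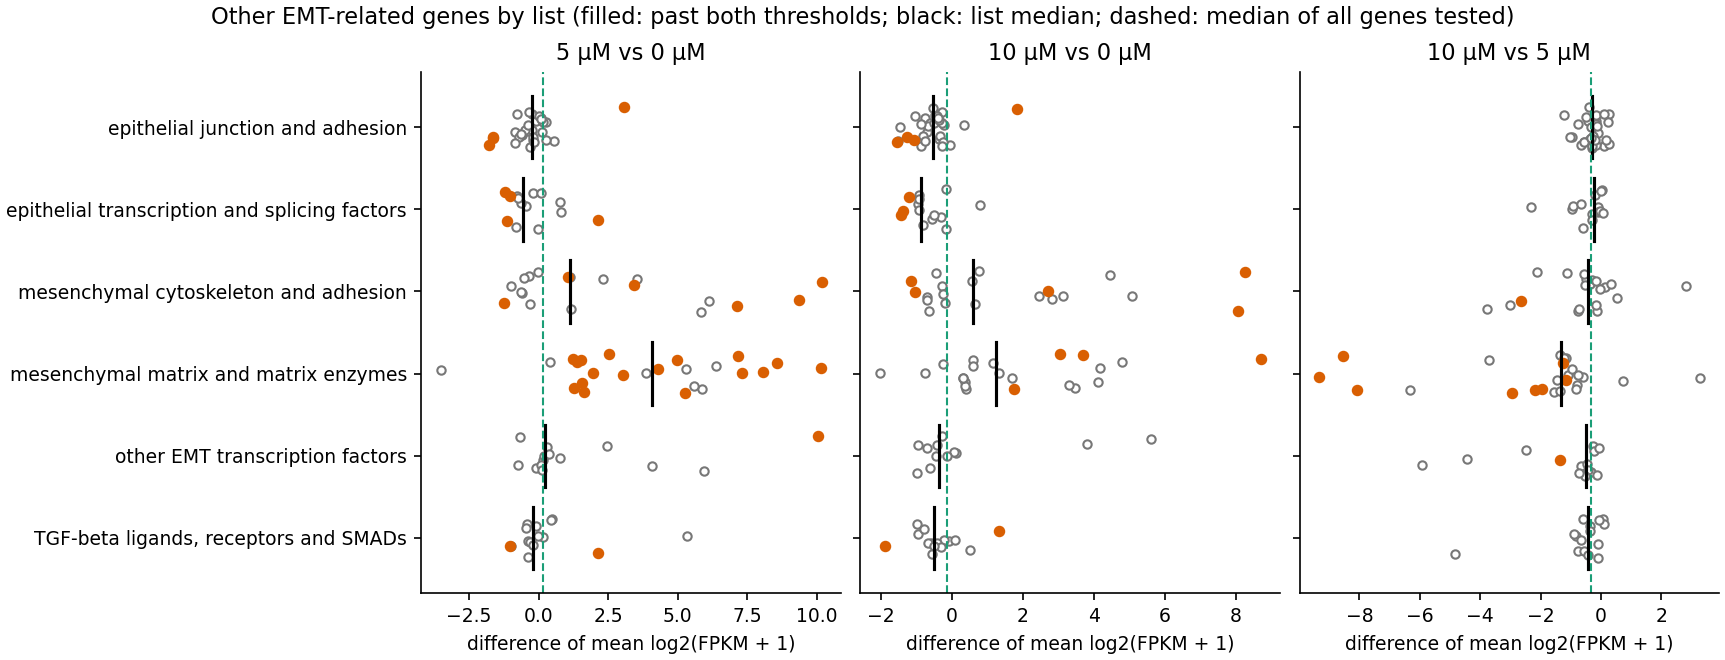
Difference of mean log2(FPKM + 1) (x axis) for each gene of 6 EMT-related lists (y axis, points spread vertically for legibility) in the 3 comparisons; filled points pass both thresholds, black bars are list medians and the dashed line is the median of all genes tested. The matrix list has 17 filled points to the right at 5 µM against 0 µM, and differences beyond 8 in either direction belong to genes at 0 in all cultures of 1 group, whose size depends on the value added before the logarithm.

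Of the other EMT transcription factors, 1 of 14 tested rose at 5 µM (14.1% of all genes) and 0 of 12 rose at 10 µM (4.07%), with 0 lower in either comparison. At an unadjusted limma p under 0.05, 4 were higher and 2 lower at 5 µM (26.6% and 21.9% of all genes), and 0 higher and 4 lower at 10 µM (11.3% and 24.2%). Of the 15 TGF-beta ligands, receptors and SMADs, 1 rose and 1 fell in each comparison with control, where 14.1% and 2.17% of all genes did at 5 µM and 4.07% and 3.4% at 10 µM. TGFB3, a ligand, rose at both concentrations, from 4107, 5780 and 5770 FPKM to 22943, 23245 and 21546 at 5 µM (4.38-fold, limma adjusted p = 0.000679) and to 11310, 13420 and 14029 at 10 µM (2.50-fold, limma adjusted p = 0.0302). TGFBR2, the type II receptor, fell 2.06-fold at 5 µM (limma adjusted p = 0.000621), and LTBP1, which holds latent TGF-beta in the matrix, fell 3.68-fold at 10 µM (limma adjusted p = 0.0193). All 6 loci of the miR-200 family and miR-205, the small RNAs that repress ZEB1 and ZEB2, were listed at 0 in all 9 cultures. On a gene of 110 nucleotides 1 fragment was worth 965536 FPKM (5 µM replicate 3) to 2484690 FPKM (0 µM replicate 1). A 0 at such short loci therefore does not show that they are silent. Mature miRNAs were not analysed here.

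Markers of other cell types also moved with concentration. The 8 fibroblast markers, several of which are in the matrix list, summed to 23405 to 32633 FPKM at 0 µM, 86723 to 94425 at 5 µM and 46289 to 53827 at 10 µM. All 8 were above 0 in some control culture, while DCN was at 0 throughout the 5 µM group and COL1A2 throughout the 10 µM group, and 4 of 8 rose at 5 µM (14.1% of all genes tested). Among the 5 leukocyte markers, CD3E was at 0 at 0 µM and reached 732 to 912 FPKM at 5 µM, PTPRC (CD45) was at most 983 FPKM in any culture, and the sum, mostly LYZ, was 8567109 to 8815638 at 0 µM, 3893788 to 4774374 at 5 µM and 4528073 to 6537011 at 10 µM. The 4 endothelial markers summed to 1901 to 5031 FPKM at 0 µM, with CDH5 and KDR at 0, to 9843 to 12404 at 5 µM and to 3267 to 3588 at 10 µM. The part of other cell types in the VIM, FN1 and matrix results was not tested.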

How the data were processed

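RNA of 9 HT-29 cultures, 3 each at 0, 5 and 10 µM 5-Aza, was sequenced as paired-end reads. Read filtering by the authors used FASTX-Toolkit, alignment to hg19 used TopHat, and Cufflinks gave FPKM per gene and sample, and the deposited files hold these FPKM values, without pooling of replicates. The annotation version and the library term are not given in the sources used here. Groups and replicate numbers came from the sample labels.

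Values of repeated symbols were summed and transformed as log2(FPKM + 1), so each log2 difference is on that scale. A fragment was worth far more than the 1 added, so the fitted difference of a gene at 0 in some cultures depends on the value added and can far exceed the ratio of its fragments. Genes entered a test if any of the 6 values compared was 10 or more. Each comparison used its own 6 samples in limma 3.58.1 (R 4.3.3; lmFit, and eBayes with trend) without a block, with Benjamini-Hochberg adjustment over all genes tested. To be called, a gene needed an adjusted p no higher than 0.05 together with a difference beyond 1 on the log2 scale in either direction. The p-values measure the spread between cultures of a single line. Other steps used numpy 2.4.6, pandas 2.3.3 and scipy 1.17.1. The fit was tested on simulated data limited to genes above a minimum mean number of fragments. That test does not cover genes at 0 in a whole group.

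Depth was estimated from the fragment steps. At 12 miRNA genes of 110 nucleotides, 46 of 46 nonzero values divided evenly by one step size in each library (tolerance 0.01), which gave the relative library term. For other genes fragments were estimated from annotated length, and at 581 genes with clear steps 388 (66.8%) followed that relation within 15%. VIM steps gave whole fragments directly. These estimates were not tested as counts.

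The members and the gene lists were chosen with earlier results of these data known, so the counts over them are descriptions. Named in the text are the members, in each list up to 2 genes with the largest rise and 2 with the largest fall among those called against 0 µM, and the 3 genes nearest in profile to VIM and to CDH1. A gene that this rule would name is not reported here. The alternatives tried were other pseudocounts, no filter, all 9 samples in one fit, a replicate block, median-of-ratios scaling, the largest entry of repeated symbols, no fold limit, each replicate left out and, added after seeing the data, total scaling and limma's treat. Gene positions are those of GENCODE v44 lifted to GRCh37, and promoter windows are those of GRCh38.p14, with no conversion between them.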

Additional observations from a re-analysis of the deposited data

How the results depend on the processing

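Of the alternative log2 differences of single members, 298 kept direction and side of the threshold, 31 lost the call, 1 gained it and 13 changed sign, none of them from a called value. The cause was not tested. Under limma's treat against a fold change of 2, chosen after seeing the data, calls at 5 µM against 0 µM were 1 for members (3 in the reported fit), 3 for the epithelial lists (8) and 12 for the mesenchymal lists (23). At 10 µM against 0 µM all 3 counts were 0 (2, 7 and 9), and at 10 µM against 5 µM they were 0 for members (2) and 3 for the mesenchymal lists (9). The share of all genes called under treat is not given here, so these counts are not set against it. The p threshold alone gave 30, 18 and 2 epithelial calls in the 3 comparisons, in place of 8, 7 and 0.

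At 10 µM against 0 µM, 1 member was called with a pseudocount of 0.1 and 1 without the filter. The replicate numbers do not pair the cultures, since deviations of same-numbered samples correlated between -0.07 and 0.09, and with the number as a replicate block 0 members were called at 10 µM against 0 µM. At 10 µM against 5 µM the block gave 1 member and 2 mesenchymal genes. With all 9 samples in one fit 1 member and 2 epithelial genes were called in that comparison, and a pseudocount of 1000 gave 1 epithelial gene.

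With each replicate left out in turn, member calls ranged from 2 to 3 at 5 µM against 0 µM, from 0 to 2 at 10 µM against 0 µM and from 0 to 2 at 10 µM against 5 µM. The epithelial calls ranged from 7 to 8, from 1 to 14 and from 0 to 4, and the mesenchymal calls from 18 to 26, from 3 to 9 and from 4 to 12.

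Members whose uncalled difference changed sign were as follows. CDH1 at 5 µM against 0 µM became 0.22 with total scaling and ran from -0.13 to 0.0080 with single replicates left out (0.0080 without 5 µM replicate 1), and ESRP1 became 0.040 with total scaling. At 10 µM against 0 µM, ZEB2 became 0.22 with median-of-ratios scaling, 0.36 with total scaling, and ran from -0.42 to 0.55 with single replicates left out (above 0 without 0 µM replicate 1, 10 µM replicate 1 or 10 µM replicate 3). ZEB1 ran from -0.012 (without 0 µM replicate 2) to 0.33, and SNAI1 from -0.24 (without 0 µM replicate 3) to 0.39. At 10 µM against 5 µM, ZEB1 became 0.12 with median-of-ratios scaling, 0.011 with total scaling and ran from -0.16 to 0.052 (without 10 µM replicate 3). SNAI2 without 5 µM replicate 1 is at 0 in every sample and gave no value.

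FPKM shifted with the scaling, by 0.24 in the median log2 difference at 10 µM against 0 µM under median-of-ratios and by 0.38 under total scaling. Depth limits VIM, ZEB2 and SNAI2, which rest on few fragments.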
